A study of Mus musculus with 9 samples.

Results

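The genes described here are 10 inflammatory mediators of the mouse jejunum: the cytokines Il1b, Il6 and Tnf, the interleukin 1 receptor antagonist Il1rn, the neutrophil chemokines Cxcl1 and Cxcl2, the monocyte chemokine Ccl2, both subunits of calprotectin (S100a8 and S100a9) and lipocalin 2 (Lcn2). They were chosen by name, with earlier results of these data known, and are 10 of the 31685 genes in the table. Jejunal RNA came from 9 male wild-type C57BL/6J mice aged 6 to 8 weeks. The 3 control mice were untreated, the 3 TAI mice received 12 Gy of X-rays to the whole abdomen followed by PBS, and the 3 TAI/IVIg mice received the same 12 Gy and then 500 mg/kg of intravenous immunoglobulin (IVIg, pooled human IgG) by vein, starting within the hour. Tissue was taken on day 3 after irradiation. The controls carried neither the radiation nor the vehicle, and the labels give no day for them. The TAI group thus differs from them by both together. The paper describes pentobarbital anaesthesia for irradiation and does not say whether the controls received it. No group received IVIg without irradiation. The labels name the tissue jejunal epithelium, but muscle and fibroblast RNA was present in every library (Acta2, smooth muscle actin, at 44.2 to 304.5 FPKM), beside strong epithelial markers (Vil1, villin, at 794 to 1157 FPKM), so the values describe jejunal wall with much epithelium in it.

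In injured gut, resident macrophages, fibroblasts and epithelial cells sense damage and release interleukin 1β, tumour necrosis factor and interleukin 6, which act on neighbouring cells through NF-kB and STAT3. Those cells then make chemokines. CXCL1 and CXCL2 draw neutrophils through CXCR2, and CCL2 draws monocytes through CCR2. IL-1RN occupies the IL-1 receptor without signalling and so brakes IL-1. S100A8 and S100A9 are among the most abundant soluble proteins of neutrophils, and LCN2 withholds iron from bacteria by binding their siderophores. Calprotectin and LCN2 are both used as stool markers of gut inflammation.

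The values are FPKM, which scale a gene's reads to its exon length and to the library's total, and the library totals behind them ran from 16284531 to 18244739 reads. Every value came out as a whole number of reads, so the reads behind each value are known. These 10 genes were scarce. Group means ran from 0.0869 FPKM (Il6 in control mice) to 12.6 FPKM (Ccl2 in TAI mice), and the reads of a member in a mouse ran from 1 to 979. A member was tested where 3 or more mice reached an FPKM of 1, which held for 8 of 10. Il6 and S100a8 fell below that level and have values here but no call by the main test. Tests are of log2(FPKM + 1) by limma over the 13056 genes at that level, with p-values adjusted by the Benjamini-Hochberg method. Because the added 1 shrinks the log2 changes of scarce genes, the mean FPKM of each member is given beside them. The log2 changes of other scarce genes are shrunken likewise.

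All 10 are protein-coding genes, placed here on GRCm38 by GENCODE M21. Il1rn lies at chr2:24336853-24351494, Lcn2 at chr2:32384633-32388252 and Il1b at chr2:129364570-129371139. S100a8 (chr3:90668978-90670035) and S100a9 (chr3:90692632-90695721) are neighbours with 22596 bases between them. On the fifth chromosome, Il6 is at chr5:30013114-30019981, and Cxcl1 (chr5:90891241-90893115) and Cxcl2 (chr5:90903871-90905938) are 10755 bases apart. Ccl2 is at chr11:82035571-82037453 and Tnf at chr17:35199381-35202007. The annotation has an antisense gene, Il1bos, whose exons overlap those of Il1b. Whether counting used strand is not given in the sources used here, and Il1bos had 0 to 5 reads in each mouse against 16 to 163 for Il1b.

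NF-kB binds a short DNA element near the start of many inflammatory genes, so the RefSeq promoter windows (GRCm38.p6, 250 bases before to 50 bases after each start) were searched on both strands for the kappaB-like letters GGG, then any 2 bases, then TTTCC. Windows were found for 9 of the 10 genes, all but Ccl2, 11 windows in all. The pattern occurred in the windows of Cxcl1, Cxcl2 and Il6 and in 2 overlapping windows of Il1rn, where the match is the same stretch. It occurs in 1.63% of all 32851 windows, a share given as a description, since the pattern was picked with these windows in view. The 4 windows below show the neighbouring chemokine pair, Il6 and, as a window without a match, S100a9. Capitals mark the kappaB-like matches.
Cxcl1, chr5:90890995-90891294, plus strand: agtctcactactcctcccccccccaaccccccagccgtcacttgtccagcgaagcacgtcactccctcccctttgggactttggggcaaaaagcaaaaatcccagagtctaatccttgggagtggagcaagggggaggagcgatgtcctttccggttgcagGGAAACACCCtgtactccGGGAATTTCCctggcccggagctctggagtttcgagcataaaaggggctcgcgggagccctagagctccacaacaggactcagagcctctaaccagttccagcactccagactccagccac
Cxcl2, chr5:90903649-90903948, plus strand: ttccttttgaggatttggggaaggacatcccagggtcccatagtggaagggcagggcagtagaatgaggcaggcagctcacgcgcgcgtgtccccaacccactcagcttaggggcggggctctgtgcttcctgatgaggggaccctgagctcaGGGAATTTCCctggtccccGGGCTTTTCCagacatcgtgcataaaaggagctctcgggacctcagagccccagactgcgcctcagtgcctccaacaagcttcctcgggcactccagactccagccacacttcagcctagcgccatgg
Il6, chr5:30012864-30013163, plus strand: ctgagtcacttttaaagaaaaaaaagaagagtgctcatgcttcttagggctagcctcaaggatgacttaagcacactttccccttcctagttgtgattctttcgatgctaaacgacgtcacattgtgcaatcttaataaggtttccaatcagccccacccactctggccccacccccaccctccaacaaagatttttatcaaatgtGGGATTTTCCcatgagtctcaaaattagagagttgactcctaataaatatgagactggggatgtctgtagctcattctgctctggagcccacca
S100a9, chr3:90695672-90695971, minus strand: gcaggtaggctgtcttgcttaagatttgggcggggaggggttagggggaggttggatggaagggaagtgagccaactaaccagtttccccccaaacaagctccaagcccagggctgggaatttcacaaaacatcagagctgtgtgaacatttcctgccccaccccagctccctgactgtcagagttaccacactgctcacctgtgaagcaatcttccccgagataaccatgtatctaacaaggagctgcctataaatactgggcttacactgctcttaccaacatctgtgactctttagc
Cxcl1 and Cxcl2 each had 2 matches and shared GGGAATTTCC, which began 71 bases before the start of Cxcl1 and 97 bases before that of Cxcl2. The other match of Cxcl2, GGGCTTTTCC, began 78 bases before its start, and the other match of Cxcl1, GGAAACACCC, lay on the opposite strand. The single match of Il6, GGGATTTTCC, began 44 bases before its start. The AP-1 letters TGANTCA, found in 7.81% of all windows, occurred among the members in Il6 and in a further window of Il1rn. A match is a description of the letters and does not show that a factor bound there.

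**Figure D1:**
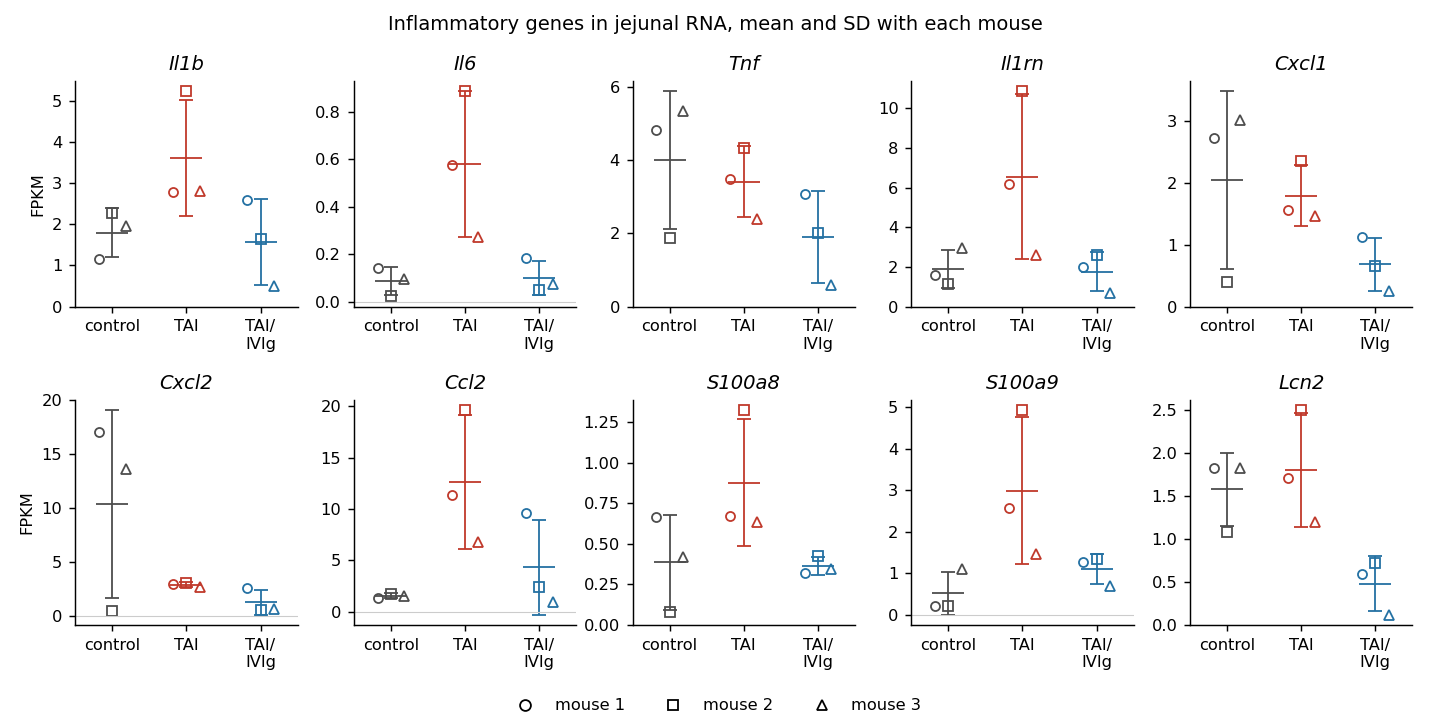
FPKM (vertical axis, linear, a scale for each gene) of the 10 genes in control, TAI and TAI/IVIg mice; each symbol is a mouse, and the bar and whiskers are the mean and SD (n = 3 mice). The 3 TAI mice lie above all other mice for Il1b, Il6 and S100a9, while Cxcl2 is highest in control mice 1 and 3.

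Ccl2, the chemokine that recruits CCR2-bearing monocytes, rose most of the 10 after irradiation. It stood at 1.31, 1.79 and 1.57 FPKM in control mice 1 to 3, from 26 to 36 reads. In TAI mice 1 to 3 it reached 11.4, 19.6 and 6.79 FPKM, from 141 to 364 reads, so that every TAI mouse was above every control. The mean rose from 1.56 ± 0.238 to 12.6 ± 6.51 FPKM (SD, n = 3), 8.08 times as high, a log2 fold change of 2.30 (standard error, SE, 0.56, limma adjusted p = 0.0140). This call held under every alternative that was run, including each mouse left out. In TAI/IVIg mice 1 to 3 Ccl2 was at 9.63, 2.43 and 0.996 FPKM, so mouse 1 was within the TAI range and mouse 3 was below all controls. The mean of 4.35 ± 4.62 FPKM (SD, n = 3) differed from the TAI mean by a log2 change of -1.59 and from the control mean by 0.71, neither past the threshold (limma adjusted p = 0.359 and 0.315). In bulk tissue, more cells of a kind and more RNA per cell cannot be told apart, for this gene and for those below.

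S100a9, a calprotectin subunit, also rose after irradiation, from a very low level. Its FPKM in control mice 1 to 3 was 0.220, 0.217 and 1.11, on 2, 2 and 10 reads. In TAI mice 1 to 3 it was 2.57, 4.94 and 1.47 FPKM, on 23, 42 and 14 reads, all above the controls. The means were 0.515 ± 0.513 and 2.99 ± 1.77 FPKM (SD, n = 3), a ratio of 5.82 and a log2 change of 1.36 (SE 0.34, limma adjusted p = 0.0156). The call rested in part on control mouse 2, since without that mouse the adjusted p was 0.0554, within a range of 0.00868 to 0.0554 over the alternatives. In TAI/IVIg mice 1 to 3 S100a9 was at 1.28, 1.35 and 0.685 FPKM, all below the TAI mice, with a mean of 1.11 ± 0.366 FPKM (SD, n = 3). The log2 change against TAI was -0.85 (limma adjusted p = 0.366).

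S100a8, its partner, was near the floor of detection throughout. Control mice 1 to 3 had 8, 1 and 5 reads, TAI mice 8, 15 and 8 reads, and TAI/IVIg mice 4, 5 and 4 reads. The corresponding means were 0.387 ± 0.292, 0.877 ± 0.390 and 0.363 ± 0.0543 FPKM (SD, n = 3). Control mouse 1 and TAI mouse 3 overlapped, whereas the TAI/IVIg mice lay below each TAI mouse. The mean was 2.27 times as high in TAI as in control mice (two-sided exact permutation test, p = 0.20) and 2.42 times as high in TAI as in TAI/IVIg mice (p = 0.10 by the same exact test, the smallest that 3 against 3 mice allow). Per length, S100a9 exceeded S100a8 in 8 of the 9 mice, the exception being control mouse 1, where their ratio was 0.332.

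Il1b and its antagonist Il1rn were both at their highest mean in the TAI mice. Il1b, which encodes the secreted IL-1β, was at 1.15, 2.29 and 1.97 FPKM in control mice 1 to 3. TAI mice 1 to 3 had 2.79, 5.25 and 2.82 FPKM, on 91, 163 and 98 reads, and did not overlap the controls. The means were 1.80 ± 0.588 and 3.62 ± 1.41 FPKM (SD, n = 3), a ratio of 2.01 and a log2 change of 0.70 (SE 0.34) that missed the threshold (limma adjusted p = 0.135). With the replicate number as a block in a fit of the control and TAI mice alone, which was added once the data had been seen, the same change had a limma adjusted p of 0.0274, within a range of 0.0272 to 0.357 over the alternatives. The pairing behind that block was read from these same data, so its p-value is a description only. In TAI/IVIg mice 1 to 3 Il1b stood at 2.60, 1.64 and 0.500 FPKM, spanning the control values and lying below every TAI mouse. Its mean of 1.58 ± 1.05 FPKM (SD, n = 3) gave a log2 change of -0.89 against TAI (limma adjusted p = 0.364).

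Il1rn spread more widely. Control mice 1 to 3 had 1.57, 1.15 and 2.94 FPKM, and TAI mice 1 to 3 had 6.20, 10.9 and 2.59 FPKM. TAI mouse 3 was below control mouse 3, so the groups overlapped, although the means were 1.89 ± 0.936 and 6.55 ± 4.15 FPKM (SD, n = 3), a ratio of 3.47. The log2 change of 1.27 (SE 0.45) lay just short of the threshold (limma adjusted p = 0.0546, with a range of 0.0195 to 0.165 over the alternatives). It passed without TAI mouse 3, with a log2 change of 1.73 and a limma adjusted p of 0.0195. In TAI/IVIg mice 1 to 3 Il1rn was at 1.98, 2.61 and 0.689 FPKM, a mean of 1.76 ± 0.977 FPKM (SD, n = 3), close to the control mean. The TAI mean was 3.73 times the TAI/IVIg mean, with a log2 change of -1.36 for TAI/IVIg against TAI (limma adjusted p = 0.354).

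Il6, which signals through gp130 to STAT3, had the lowest mean FPKM of the 10 genes in every group, and its reads are given first. Control mice 1 to 3 had 6, 1 and 4 reads, TAI mice 24, 35 and 12 reads, and TAI/IVIg mice 8, 2 and 3 reads. Each TAI mouse thus had more reads than any other mouse, and control and TAI/IVIg mice overlapped. In FPKM the means were 0.0869 ± 0.0599, 0.578 ± 0.307 and 0.102 ± 0.0716 (SD, n = 3). The TAI mean was 6.65 times the control mean and 5.68 times the TAI/IVIg mean, each with p = 0.10 by a two-sided exact permutation test, the smallest possible here. Limma with the level for testing lowered to 0.1 FPKM gave an adjusted p of 0.0233 for TAI against control, and limma voom on the recovered reads gave a log2 change of 2.66 (SE 0.70, adjusted p = 0.0201). For TAI/IVIg against TAI the same fits gave adjusted p-values of 0.385 and 0.277. Il6 met the read filter of voom (at least 10 reads in at least 3 mice) only through the TAI mice. The voom p-values of Il6 are therefore a description only.

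Tnf did not follow the other cytokines. It was at 4.84, 1.86 and 5.36 FPKM in control mice 1 to 3, on 138, 54 and 152 reads, and at 3.49, 4.35 and 2.41 FPKM in TAI mice 1 to 3. The TAI mice all lay inside the control range. The means of 4.02 ± 1.89 and 3.42 ± 0.971 FPKM (SD, n = 3) gave a log2 change of -0.13 (SE 0.40, limma adjusted p = 0.821), which turned positive when library medians were set equal. In TAI/IVIg mice 1 to 3 Tnf was at 3.09, 2.01 and 0.582 FPKM, a mean of 1.89 ± 1.26 (SD, n = 3), with a log2 change of -0.69 against TAI and -0.82 against control (limma adjusted p = 0.459 and 0.121). Without control mouse 2, the change from control was -1.18 (limma adjusted p = 0.0417, in a range of 0.0417 to 0.537 over the alternatives).

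Of the neutrophil chemokines, Cxcl2 had the highest control mean of the 10 genes, carried by control mice 1 and 3. Cxcl2 was at 17.1 and 13.6 FPKM in control mice 1 and 3, on 613 and 488 reads, but at 0.520 FPKM in control mouse 2, on 19 reads. The TAI mice were close together, at 3.02, 3.09 and 2.68 FPKM for mice 1 to 3, inside the gap between those controls. TAI/IVIg mice 1 to 3 had 2.63, 0.626 and 0.634 FPKM, all below the TAI mice. The control, TAI and TAI/IVIg means were 10.4 ± 8.73, 2.93 ± 0.220 and 1.30 ± 1.16 FPKM (SD, n = 3), but the spread of the controls was as large as the difference. The log2 change of TAI against control was -0.91 (SE 0.81, limma adjusted p = 0.406). Without control mouse 2 it was -2.05 (limma adjusted p = 0.00807, in a range of 0.00807 to 0.824 over the alternatives), so a single control mouse decided the call. The same held for TAI/IVIg against control, where the log2 change was -1.79 (limma adjusted p = 0.0989) with all mice and -2.93 without control mouse 2 (limma adjusted p = 0.00167, in a range of 0.00167 to 0.367 over the alternatives).

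Cxcl1 repeated the split among the controls at a lower level. It was at 2.73, 0.392 and 3.02 FPKM in control mice 1 to 3, on 89, 13 and 98 reads, with mouse 2 again low. TAI mice 1 to 3 had 1.56, 2.36 and 1.46 FPKM and lay within the control range. TAI/IVIg mice 1 to 3 had 1.13, 0.659 and 0.254 FPKM and lay below every TAI mouse. The means were 2.05 ± 1.44, 1.79 ± 0.493 and 0.680 ± 0.437 FPKM (SD, n = 3). Their log2 changes were 0.01 for TAI against control and -0.75 for TAI/IVIg against TAI (limma adjusted p = 0.992 and 0.427). Against control, the TAI/IVIg mice differed by -0.75 (limma adjusted p = 0.142), or by -1.24 without control mouse 2 (limma adjusted p = 0.00981, in a range of 0.00981 to 0.485 over the alternatives). Cxcl2 exceeded Cxcl1 per length in 8 of the 9 mice, by ratios of 6.24 and 4.51 in control mice 1 and 3 and of 1.31 to 1.94 in the TAI mice.

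Lcn2, made by inflamed epithelium and by neutrophils, did not differ between control and TAI mice beyond their spread. Control mice 1 to 3 had 1.82, 1.08 and 1.83 FPKM and TAI mice 1 to 3 had 1.71, 2.505 and 1.19 FPKM, a log2 change of 0.11 (limma adjusted p = 0.739). In TAI/IVIg mice 1 to 3 it was at 0.594, 0.718 and 0.114 FPKM, on 28, 32 and 5 reads, below every other mouse. The mean of 0.475 ± 0.319 FPKM compared with 1.58 ± 0.431 in control and 1.80 ± 0.662 in TAI mice (SD, n = 3), 3.32 and 3.80 times as high. Against control the log2 change of -0.81 (SE 0.24) passed the threshold (limma adjusted p = 0.0217). It lost the call without control mouse 1, control mouse 3 or TAI/IVIg mouse 3 (limma adjusted p = 0.0579, 0.0685 and 0.0732) and when library medians were set equal (0.0880), in a range of 0.0203 to 0.121 over the alternatives. Against TAI it was -0.92 (SE 0.24, unadjusted p = 0.00375, limma adjusted p = 0.353).

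**Figure D2:**
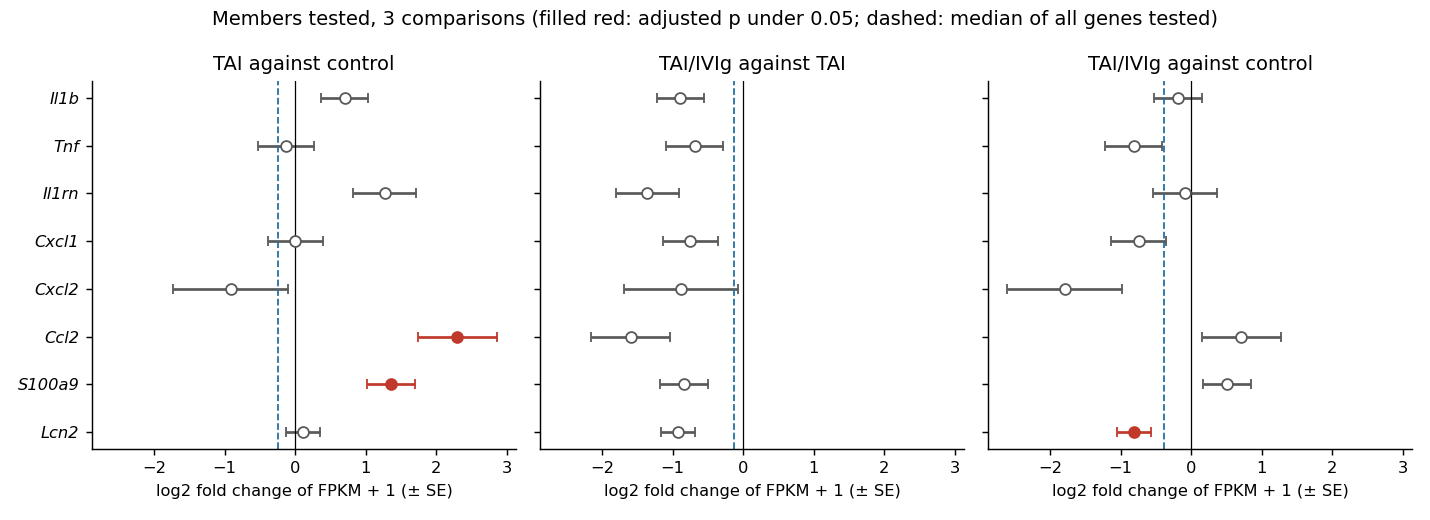
Log2 fold changes of FPKM + 1 (horizontal axis, points with SEs) for the 8 genes tested in each of the 3 comparisons; red filled points have a limma adjusted p under 0.05, and the dashed line is the median of all genes tested. Ccl2 and S100a9 stand at 2.30 and 1.36 in TAI against control, Lcn2 at -0.81 in TAI/IVIg against control, and no point is filled in TAI/IVIg against TAI.

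Counted over the members, 2 of the 8 tested (Ccl2 and S100a9) were called higher in TAI against control, and 0 were called lower. Over all genes tested, 8.81% were called higher and 26.1% lower, so 2 of 8 is set against a background in which falls outnumbered rises. The members with every TAI mouse above every control numbered 4 of 10 (Il1b, Il6, Ccl2 and S100a9), or 3 of the 8 tested, against 15.1% of all genes tested. The tested members had a median log2 change of 0.41, beside -0.24 for all genes tested. For TAI/IVIg against control, 1 of the 8 tested was called lower (Lcn2) and 0 higher, against 37.4% and 9.06% of all genes, and the medians were -0.47 for the members and -0.39 for all genes. Without control mouse 2, 4 were called lower (Tnf, Cxcl1, Cxcl2 and Lcn2), and without control mouse 1, control mouse 3 or TAI/IVIg mouse 3, 0 were. These comparisons with the controls share the 3 control mice.

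For TAI/IVIg against TAI, 0 of the 8 members tested passed the adjusted threshold, as did 0.0% of the 13056 genes tested. At an unadjusted p under 0.05, limma found 5 of the 8 lower (Lcn2, Il1rn, Ccl2, Il1b and S100a9) and 0 higher, against 11.2% lower and 1.64% higher of all genes tested. Limma voom on the reads, which could also include Il6, likewise called 0 of 9 after adjustment and found 5 of 9 lower at an unadjusted p under 0.05, against 14.6% of the 16795 genes it tested. Il6 was among those 5, and it met the read filter of voom only through the TAI mice. All 8 tested members had a log2 change below 0, where 69.6% of all genes did, and their median was -0.89 beside -0.13 for all genes. The members with every TAI/IVIg mouse below every TAI mouse numbered 7 of 10, or 5 of the 8 tested, against 16.1% of all genes tested. The 7 were Il1b, Il6, Cxcl1, Cxcl2, S100a8, S100a9 and Lcn2. The members thus stood lower in TAI/IVIg mice by up to 5.68 times in the mean (Il6), but no single change passed the adjusted test.

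The mice of a group were not alike, and the members tended to be high or low in the same ones. TAI mouse 2 had the highest level of all 9 mice for 7 of the 10 members and 5 of the 8 tested, against 8.74% of all genes tested. The TAI mice fell in the order 2, 1, 3 for 9 of the 10 and 7 of the 8 tested (27.6% of all genes tested), Il1b being the exception. TAI/IVIg mouse 3 had the lowest level of all 9 mice for 6 of the 10 members, all 6 among the 8 tested, but it was also lowest for 33.8% of all genes tested. Control mouse 2 was the lowest control for 8 of the 10 and 6 of the 8 tested (25.9% of all genes tested), the exceptions being Il1b and Ccl2. The share of members that stood highest in all 3 TAI mice was 3 of 10 (Il1b, Il6 and S100a9), or 2 of the 8 tested, against 2.96% of all genes tested.

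**Figure D3:**
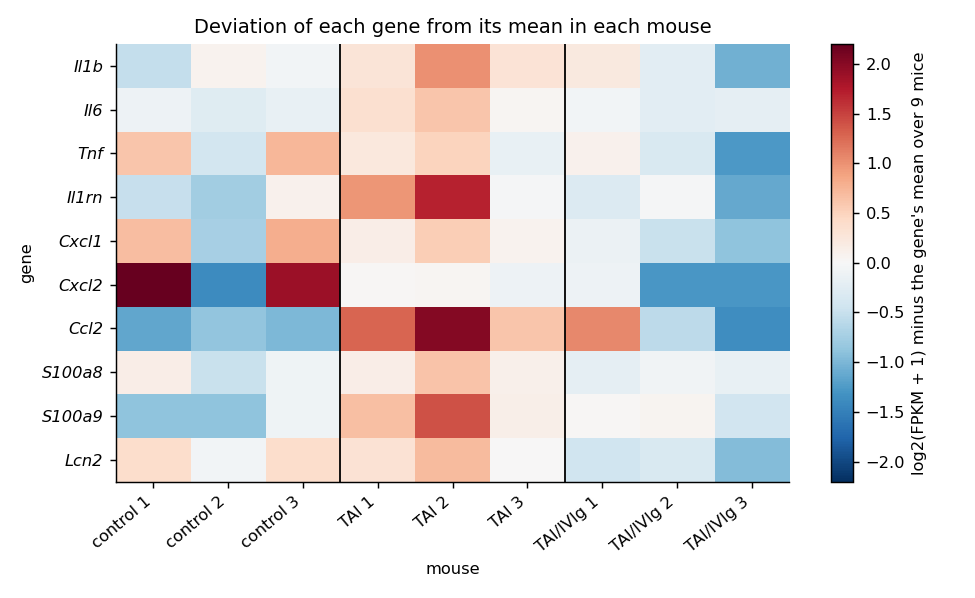
Colour gives log2(FPKM + 1) minus the mean of each gene over the 9 mice (rows are the 10 genes, columns the mice, and black lines separate the groups). TAI mouse 2 is highest for 7 of the 10 genes, TAI/IVIg mouse 3 is lowest for 6, and Cxcl2 is low in control mouse 2 alone among the controls.

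Around the members, 143 other genes of 10 cytokine, chemokine and acute phase lists were in the table and 114 were tested. After irradiation 22 of these were called higher and 9 lower, with a median log2 change of 0.18. The counts of the single lists below are small and are to be read against the 8.81% of all genes called higher and the 26.1% called lower. With library medians set equal the split was 34 and 6, because that scaling moves all genes up (51.9% of all calls were then rises, against 25.2%). In TAI/IVIg against control 18 were called higher and 21 lower, or 31 and 8 with library medians set equal, beside 9.06% higher and 37.4% lower of all genes tested. Rises made up 19.5% of the calls over all genes, or 57.6% with library medians set equal. In TAI/IVIg against TAI limma called 0, as for all genes. At an unadjusted limma p under 0.05, 1 of the 114 was higher and 19 lower, beside 1.64% and 11.2% of all genes tested. The median log2 change was -0.28, beside -0.13 for all genes tested. A further list held the cytokines measured as protein in the study, Il1b and Il6 with Il17a and Ifng. The paper measured the proteins by ELISA on an earlier day than this RNA. It reported them raised in the TAI mice and lowered by IVIg. The RNA of Ifng was nearly absent on day 3, with 0 to 4 reads in each mouse, and Il17a had 0 to 3.

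The monocyte chemokine list had 4 of 16 genes called higher, Ccl2 among them, and 2 lower after irradiation. Ccl7 and Ccl12, which lie in the same chemokine cluster as Ccl2 and also act on CCR2, rose by log2 changes of 2.13 and 2.18 (limma adjusted p = 0.00811 and 0.0278). Cx3cl1, the membrane-bound chemokine fractalkine, rose by 0.97 (limma adjusted p = 0.00342). Ccr2, the receptor of CCL2, CCL7 and CCL12, fell by 1.08 on the log2 scale (limma adjusted p = 0.00438), and Ccl5, which attracts T cells, by 1.02 (limma adjusted p = 0.0253). Ccr2 was scarce, at 1.26 to 2.35 FPKM in control and 0.181 to 0.391 FPKM in TAI mice, so its log2 change was shrunken. Ccl7 kept its call under every alternative, while Ccl12 lost it in 7 of 20, with adjusted p-values of up to 0.0777, and Ccl5 in 8 of 20, with adjusted p-values of up to 0.135.

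The IL-6 list had 5 of 11 tested genes called higher and 0 lower, and here the downstream genes were far more abundant than the cytokine. Socs3, the feedback inhibitor that STAT3 induces, was at 12.9 to 13.1 FPKM in the control mice and 76.3 to 123.8 FPKM in the TAI mice, a log2 change of 2.92 (SE 0.20, limma adjusted p = 0.000150). In the TAI/IVIg mice Socs3 was still at 65.9 to 89.5 FPKM, 2.55 above control on the log2 scale (limma adjusted p = 0.000151), while Il6 had 8, 2 and 3 reads in those mice. Stat3 itself rose by 0.85 (limma adjusted p = 0.00350), and Osmr, the receptor of the related oncostatin M, by 0.96 (limma adjusted p = 0.0255, up to 0.0844 over the alternatives).

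**Figure D4:**
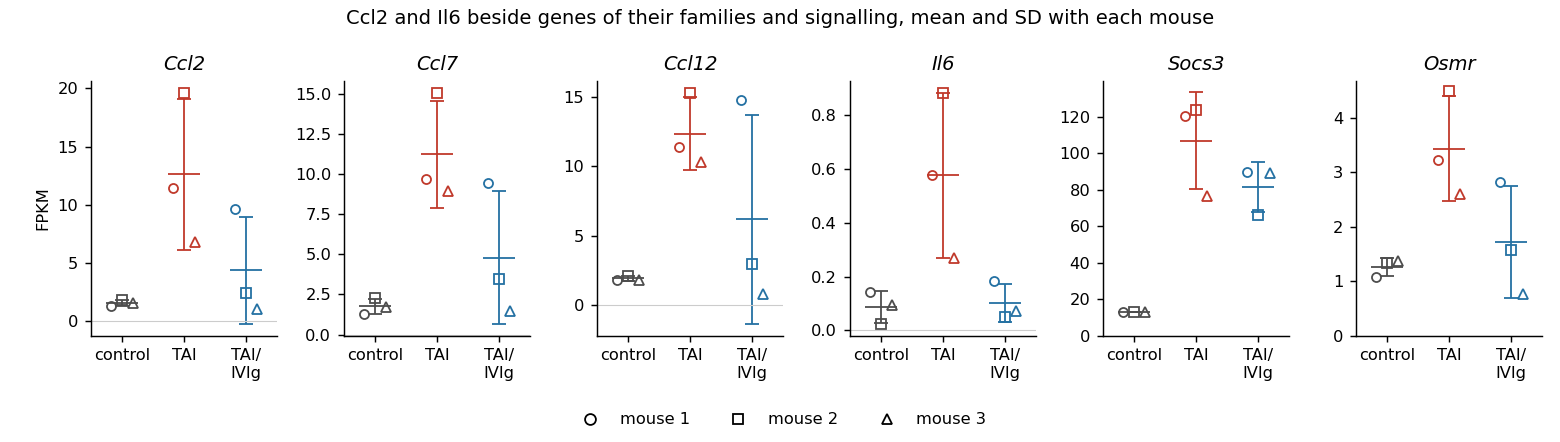
FPKM (vertical axis, linear, a scale for each gene) of Ccl2 with its cluster neighbours Ccl7 and Ccl12, and of Il6 with Socs3 and Osmr; symbols are mice, and bars and whiskers are the mean and SD (n = 3 mice). TAI/IVIg mouse 1 lies within or next to the TAI range for Ccl2, Ccl7, Ccl12 and Osmr, and Socs3 stays above all controls in every irradiated mouse.

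Of the IL-1 list, 3 of 17 genes were called higher and 3 lower after irradiation. Il33, an alarmin, and Irak2, a signalling kinase of the IL-1 receptor, rose by 1.69 and 0.79 on the log2 scale (limma adjusted p = 0.0145 and 0.00207). Il18, its binding protein Il18bp and Casp1, the protease that matures IL-1β and IL-18, fell by 2.26, 1.79 and 1.29 (limma adjusted p = 0.00356, 0.00285 and 0.00475). The TNF list had 3 of 14 called higher and 1 lower, with Tnfrsf1a, the main TNF receptor, at 0.82 (limma adjusted p = 0.0117) though Tnf itself did not change beyond its spread. The NF-kB list, feedback inhibitors and targets, had 2 of 21 called higher, close to the share of all genes (Bcl3 and Relb, by 1.02 and 0.87, limma adjusted p = 0.0110 and 0.00261), and 0 lower.

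The neutrophil chemokine list had 1 of 5 tested genes called higher, Pf4, a platelet and macrophage chemokine (1.06, limma adjusted p = 0.00762), and 0 lower. Cxcl5, made by epithelium and stroma and below the level for testing, is named after its values were seen. It went from 0.317 ± 0.152 in control to 2.51 ± 1.83 in TAI and 0.447 ± 0.188 FPKM in TAI/IVIg mice (SD, n = 3). Every TAI mouse was above every other mouse, as for 2.96% of all genes tested. Cxcl3, also below that level and also named after its values were seen, did not rise. It had 36, 1 and 34 reads in control mice 1 to 3. TAI mice 1 to 3 had 4, 3 and 2 reads of Cxcl3, and TAI/IVIg mice 1 to 3 had 1, 2 and 0. Of the S100 list, 3 of 11 were called higher (S100a9, S100a11 and S100a10), of which S100a11 lost its call in 5 of 20 alternatives and S100a10 in 11 of 20. The 2 called lower were S100a6 and S100a16, by 0.99 and 0.96 on the log2 scale (limma adjusted p = 0.00579 and 0.00473). The acute phase list had 1 of 11 called higher, Hp, the haemoglobin scavenger haptoglobin (1.92, limma adjusted p = 0.0390), which lost its call in 11 of 20 alternatives. The IL-17 and IL-22 list had 1 of 9 called higher (Il22ra1, 1.38, limma adjusted p = 0.00771) and 1 lower (Il17rc, -1.43, limma adjusted p = 0.000560), and the regulatory list had 1 of 7 higher (Il4ra, 1.27, limma adjusted p = 0.00360).

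Markers of the cells that these genes recruit, or that make them, were followed in the same mice. Of 19 neutrophil markers in the table, 8 had at most 10 reads in every mouse, among them myeloperoxidase (Mpo, 0 or 1 read) and the resistin-like gene Retnlg. In mice 1 to 3 of each group, Retnlg had 1, 1 and 0 reads in control, 5, 9 and 1 in TAI and 2, 2 and 0 in TAI/IVIg. Cxcr2, the receptor for CXCL1 and CXCL2, had 3, 0 and 6 reads in control, 6, 11 and 1 in TAI and 1, 4 and 1 in TAI/IVIg. Both had their most reads in TAI mouse 2, as did S100a9. The summed neutrophil list ran from 20.3 to 36.3 FPKM in control, 14.8 to 36.2 in TAI and 11.9 to 21.02 in TAI/IVIg mice. Of the 7 neutrophil markers tested, 1 was called higher after irradiation, Mmp9 (1.75, limma adjusted p = 0.00260), and 0 lower. Ly6g, whose paralogs may share its reads, had 20 to 216 reads in control, 11 to 62 in TAI and 1 to 8 in TAI/IVIg mice. Csf3r, the receptor for the neutrophil growth factor G-CSF, was at 1.59 to 1.95 FPKM in control, 0.926 to 2.09 in TAI and 0.446 to 0.881 FPKM in TAI/IVIg mice. Retnlg and Cxcr2 thus peaked in the same mouse as S100a9 while Ly6g peaked in a control mouse, and the part of neutrophils in the values of S100a9 was not tested.

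The 18 monocyte and macrophage markers summed to 1552 to 1789 FPKM in control, 880.1 to 1077 in TAI and 745.9 to 1031 FPKM in TAI/IVIg mice, and 5 of the 17 tested were called lower and 1 higher (Cd14) after irradiation, close to the 26.1% and 8.81% of all genes. Ly6c2, a marker of inflammatory monocytes, fell by 1.86 on the log2 scale (limma adjusted p = 0.00177). The other markers of this list called lower were Ccr2, given above, Cd68, Plac8 and Itgax. The last 3 had log2 changes of -0.95, -0.90 and -0.76 (limma adjusted p = 0.0131, 0.0137 and 0.0356). Csf1r and Adgre1, which mark macrophages widely, had log2 changes of -0.12 and -0.09 (limma adjusted p = 0.688 and 0.831). The 12 stromal and muscle markers summed to 401.3 to 488.7 FPKM in control, 449 to 588.3 in TAI and 102.9 to 426.3 FPKM in TAI/IVIg mice. Among the TAI/IVIg mice, mouse 1 was highest and mouse 3 lowest, as for Ccl2, Il1b, Tnf and Cxcl1. Il6, Il1rn, Cxcl2, S100a8, S100a9 and Lcn2 did not have this order, and its share over all genes was not counted. TAI/IVIg mouse 3 was the lowest of all 9 mice for 33.8% of all genes tested. Of the 12 stromal markers, 9 were lower at an unadjusted limma p under 0.05 in TAI/IVIg against TAI, beside 11.2% of all genes tested. After adjustment 0 of them were called, and their part in the lower values of the members was not tested.

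**Figure D5:**
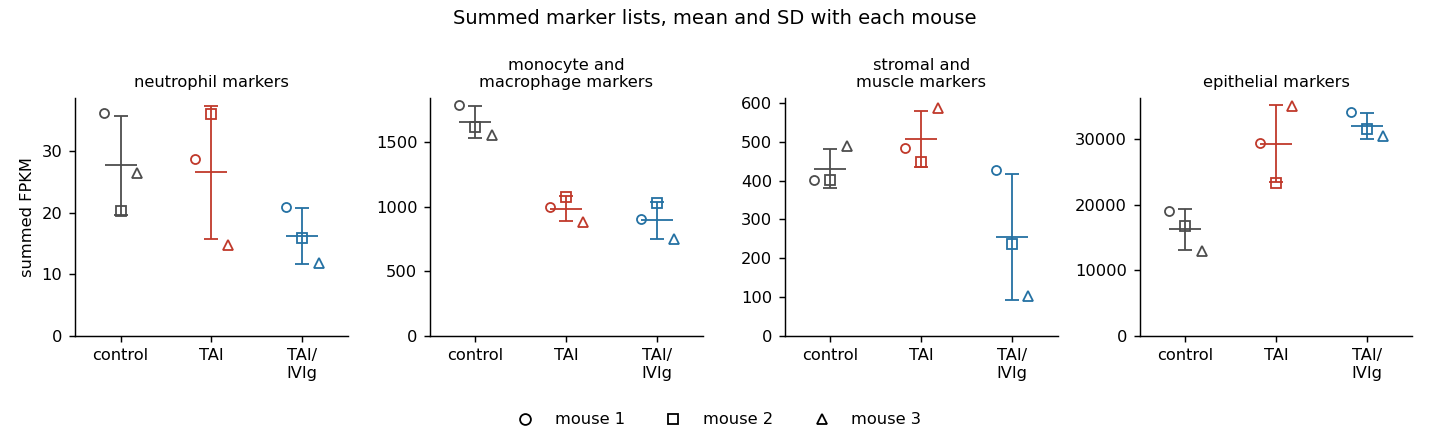
Summed FPKM (vertical axis, linear from 0) of 4 lists of marker genes in each mouse; symbols are mice, and bars and whiskers are the mean and SD (n = 3 mice). The summed monocyte and macrophage markers are lower in both irradiated groups, at 745.9 to 1077 FPKM, than in control mice, and stromal and muscle markers are at 102.9 FPKM in TAI/IVIg mouse 3 against at least 401.3 FPKM in every control mouse.

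Among all other genes tested, those whose log2(FPKM + 1) followed Ccl2 most closely over the 9 mice were Tnc (tenascin C, a matrix protein of wounded stroma), Osmr and Ccl7, with Pearson correlations of 0.990, 0.990 and 0.984. Il1b was followed by Sntb2, Col12a1 and Col4a2 (0.980, 0.978 and 0.976), of which the last pair are collagen genes. Il1rn was followed by Inf2, Adam8 and Lif (0.985, 0.941 and 0.941), and Lcn2 by Klhl26, Capn2 and Snx10 (0.980, 0.977 and 0.957). For Tnf the closest were Gm16161, Trip12 and Ifit2 (0.969, 0.964 and 0.947), and for S100a9 Gm20219, Plcd3 and Dync1h1 (0.955, 0.952 and 0.950). Cxcl1 and Cxcl2 had the loosest matches, led by Mrc1 (0.936) and Ppp6r2 (0.922). The points share the groups and the stromal content of the mice, and the correlations are given as a description.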

How the data were processed

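The authors sequenced jejunal RNA of 9 mice, all in the same batch per the labels, and deposited an FPKM value per gene and mouse (reads scaled to gene length and library total), without pooling. The submitters' processing notes name FastQC, Trimmomatic, STAR, featureCounts and DESeq2 and the builds mm10 and GRCm38, with no versions. The annotation and the strand setting are not given in the sources used here. All 9 columns were used, and 0 were left out. Gene IDs were given symbols from GENCODE M21 (31146 of 31685).

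Reads were recovered as FPKM times exon length (GENCODE M21, or the gene's own step) times library total. All genes gave whole reads within 0.01 of a read (100.0% of values), and library totals ran from 16284531 to 18244739 (median 17312593). The main test was limma (version 3.58.1, R 4.3.3) on log2(FPKM + 1), with group means for all 9 mice and a trended empirical Bayes step. It covered the 13056 genes that reached 1 FPKM in 3 or more mice. Benjamini-Hochberg adjusted p-values under 0.05 were called. Limma voom on the recovered reads (at least 10 in at least 3 mice, 16795 genes) was an alternative. The other alternatives were a pseudocount of 0.1, other filters, library medians set equal, quantile normalization, a replicate block, no trend, fits of only the 6 mice in a comparison and each mouse left out. Libraries within a group differed well beyond sampling noise. The labels do not say that the mice came from separate cages or litters, so p-values measure the spread between these mice. Means and folds cover the mice, and exact permutation tests were used for the 2 members below the filter.

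The replicate numbers carry no stated meaning. When each mouse was compared with its group's mean, same-numbered control and TAI mice deviated together (correlations of 0.271, 0.241 and 0.308 for numbers 1 to 3). A replicate block for control and TAI mice alone was therefore added after seeing the data. The labels name no such pairs, and the pairing was read from the same values that the block then tests. The p-values of that block are therefore a description only. For TAI/IVIg mice the same correlations ran from -0.296 to 0.201 and gave no pairing.

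On reads simulated for TAI against control (13536 genes tested), limma called 97 of 100 genes changed 4-fold, 100 of 100 changed 8-fold and 9 unchanged genes. The changed genes were drawn from those above a control level that most members did not reach. Each simulated gene had the median spread of genes at its level, and as many genes rose as fell. These rates therefore do not carry over to genes as scarce as those members or to genes of wider spread. Nor do they cover data in which falls outnumber rises, as they do here. The members and gene lists were chosen with earlier results of these data known. All members are named, and of each list up to 3 genes called in each direction with the largest change, plus the 3 genes most alike each tested member. Promoter windows are from RefSeq (GRCm38.p6).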

Additional observations from a re-analysis of the deposited data

How the results depend on the processing

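For TAI against control, 2 members were called. The count was 1 with a mean FPKM of at least 5 (Ccl2 alone reaches it), 4 with quantile normalization, 4 with voom on median-ratio library sizes and 5 with voom and a replicate block in control and TAI mice, where voom without the block called 3. The voom counts included Il6, which met the read filter only through the TAI mice. The main count ran from 2 to 3 with each mouse left out. The 2 without control mouse 2 were Ccl2, higher, and Cxcl2, lower. The 31 pathway genes called became 19 to 37 with a mouse left out, with 19 without TAI mouse 1. For TAI/IVIg against control, the 1 call became 0 with no filter, with a mean FPKM of at least 5, with library medians equal, with quantile normalization and with voom on median-ratio sizes. It ran from 0 to 4 with a mouse left out, with 0 without control mouse 1, control mouse 3 or TAI/IVIg mouse 3 and 4 without control mouse 2. The causes were not tested.

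The sign of several small log2 changes turned. For TAI against control, Tnf was 0.133, 0.119 and 0.103 with library medians equal, quantile normalization and voom on median-ratio sizes, and -0.49 to 0.085 with a mouse left out. Cxcl1 was -0.048 under voom with the replicate block and -0.486 to 0.279 with a mouse left out, and Lcn2 was -0.065 to 0.274 with a mouse left out. For TAI/IVIg against control, Il1b was 0.167, 0.26 and 0.118 and Il1rn 0.273, 0.356 and 0.345 under the same 3 scalings, and -0.471 to 0.16 and -0.317 to 0.23 with a mouse left out. Ier3 was 0.059 with library medians equal, and Ltbr 0.234 there and 0.152 with voom on median-ratio sizes. The cause was not tested.

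For TAI/IVIg against TAI, 0 members passed under any alternative (adjusted p from 0.0656 to 0.977), and the 8 tested stayed below 0 under each. Over all genes, 4 were called with no filter, 2 with an FPKM of at least 0.1 and 3 with the replicate block, against 0. The replicate block over all 9 mice changed no call of a member. Depth limits Il6 and S100a8 most, with 1 to 35 reads a mouse, and 3 mice a group cannot give an exact permutation p under 0.10.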

Other observations

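Of 11 epithelial markers, 4 were called higher and 1 lower in TAI against control, beside 8.81% and 26.1% of all genes, and their summed level was 12920 to 19090 FPKM in control, 23350 to 35140 in TAI and 30420 to 34230 FPKM in TAI/IVIg mice. Of the 7 B and plasma cell markers, 7 had a log2 change below 0 in TAI against control, with a median of -1.82, but 0 passed the limma test after adjustment and 0 had an unadjusted p under 0.05. The 7 T and NK cell markers tested likewise had 0 calls, with summed levels that overlapped in all groups. The parts of these cells in the members' values were not tested.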
